A study of Homo sapiens with 4 samples.

Results

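The subunit genes of RNA polymerases I, II and III were followed in RNA recovered with the m6A demethylase ALKBH5. They were the rows of the expression table whose symbol begins with POLR1, POLR2 or POLR3 followed by a subunit letter, together with the older symbols CD3EAP, TWISTNB, ZNRD1 and CRCP. This gave 35 of the 26830 symbols, and 28 of them had a mean of at least 1 TPM (a length-normalised share of all transcripts) over the libraries and were tested. NOMO-1, a human acute myeloid leukaemia line of monocytic character, carried a lentivirus for 3xFlag-tagged ALKBH5 (labelled ALKBH5 OE), and the cells were kept by puromycin and by sorting for GFP. Every library came from such overexpressing, UV-crosslinked cells: input 1 and 3 were RNA taken without antibody, and Flag-IP 1 and 3 were RNA pulled down with anti-Flag antibody (n = 2 in each group). No pull-down from untagged cells is analysed here, so binding of RNA to the beads or antibody was not measured. Whether libraries with the same label are separate cultures is not stated, and the p-values then cover only library-to-library spread, which may be technical.

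RNA polymerase I makes the large ribosomal RNA precursor, polymerase II makes messenger RNA, and polymerase III makes transfer RNA, 5S ribosomal RNA and other short RNAs. In each enzyme the largest and the second largest subunits face each other and form the active site, and here they are called the catalytic pair: POLR1A and POLR1B, POLR2A and POLR2B, POLR3A and POLR3B. Around the pair sit an alpha-like dimer, a stalk, a zinc ribbon subunit and, in polymerases I and III, further subunits with roles like those of general initiation factors, while a set of small subunits is common to all the enzymes.

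The largest subunits are the most alike at the loop that holds the catalytic magnesium ion, and the stretch is shown because it marks the largest subunit gene of each enzyme. In gapped alignments of the coding sequences of the largest subunits, 75.1% to 75.9% of the paired bases were identical. Bases set against gaps were left out, so that share overstates the likeness of the whole sequences. The 45 bases around that loop lie within a single coding exon of each gene, at chr2:86070096-86070140 (minus strand) in POLR1A, chr17:7499285-7499329 (plus strand) in POLR2A and chr10:78013701-78013745 (minus strand) in POLR3A (GRCh38, GENCODE 29). Capitals mark the codons of the aspartate-rich loop.
POLR1A: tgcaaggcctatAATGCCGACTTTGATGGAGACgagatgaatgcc
POLR2A: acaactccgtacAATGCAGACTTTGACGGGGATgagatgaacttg
POLR3A: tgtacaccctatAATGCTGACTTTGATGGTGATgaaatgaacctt

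POLR2J, the RPB11 gene, has near copies on the same chromosome, and their coding starts are shown because reads from them cannot be fully told apart. POLR2J2 and POLR2J3 shared 99.4% of aligned coding bases with each other, and 95.1% and 95.6% with POLR2J. The spliced stretches below run from the start codon, on the minus strand of chromosome 7, within 102476204 to 102478860 for POLR2J, 102668938 to 102671601 for POLR2J2 and 102569858 to 102572521 for POLR2J3. Capitals mark 3 bases of POLR2J that the copies lack, and the bases of POLR2J2 that differ from POLR2J in the alignment.
POLR2J: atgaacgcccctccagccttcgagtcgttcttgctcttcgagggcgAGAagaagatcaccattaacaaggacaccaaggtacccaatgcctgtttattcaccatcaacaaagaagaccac
POLR2J2: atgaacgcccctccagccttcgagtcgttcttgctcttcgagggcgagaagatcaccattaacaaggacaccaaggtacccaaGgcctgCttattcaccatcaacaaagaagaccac
POLR2J3: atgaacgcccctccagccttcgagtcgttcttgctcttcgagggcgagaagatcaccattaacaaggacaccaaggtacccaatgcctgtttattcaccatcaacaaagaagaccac

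TPM values sum to 1000000 in each library, so sequencing depth is unknown and counting error cannot be given. Protein-coding genes took 3.21% and 3.66% of the TPM in the inputs and 7.23% and 6.19% in the Flag-IP libraries, so most mRNAs stood higher in Flag-IP: the median tested gene had a ratio of Flag-IP to input means of 2.38. Differences are therefore given on 2 scales. The deposited scale is log2(TPM + 1), on which the median tested gene differed by 0.84. The median-ratio scale first divides each library by its typical gene, so that a difference is relative to the other genes (median tested gene -0.01). Both understate the change of low genes, as 1 TPM is added before the logarithm. On the NOMO-1 marker list 6 of 11 genes reached a mean of 1 TPM. The list summed to 56.18 and 67.23 TPM in input and 108.98 and 98.74 TPM in Flag-IP. Most of the input sums came from CTSG (28.41 and 30.46 TPM) and ELANE (11.59 and 15.7 TPM). The means of LYZ, MPO, ITGAM and CSF1R stayed below 1 TPM, and CD14 was listed at 0 in each library. Of the T cell, B cell, erythroid, epithelial and fibroblast markers 0 reached 1 TPM, and no such list summed to more than 0.29 TPM.

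Most subunit mRNAs stood higher in Flag-IP than in input, and among the tested subunits the ratios were highest in the catalytic pairs as a class. Together the 35 genes summed to 46.9 and 50.87 TPM in input 1 and 3, and to 108.78 and 98.05 TPM in Flag-IP 1 and 3. The Flag-IP values did not overlap the inputs and were higher for 31 of 35 genes, among them 25 of the 28 tested (all tested genes, 93.1%). CD3EAP alone lay below in both Flag-IP libraries, and POLR1D, POLR2E and POLR3GL overlapped between the groups. On the deposited scale 20 of 28 passed the limma test upward (background 86.6%) and 0 downward (0.74%), at a Benjamini-Hochberg adjusted p below 0.05 over all 6487 genes tested. The upward count was lower without input 1, as was that over all genes. On the median-ratio scale 4 of 28 passed upward (background 22.3%) and 6 downward (18.6%), with a median difference of -0.16. On that scale the upward count was lower without Flag-IP 3 and the downward count lower without Flag-IP 1, as were the counts over all genes.

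**Figure D1:**
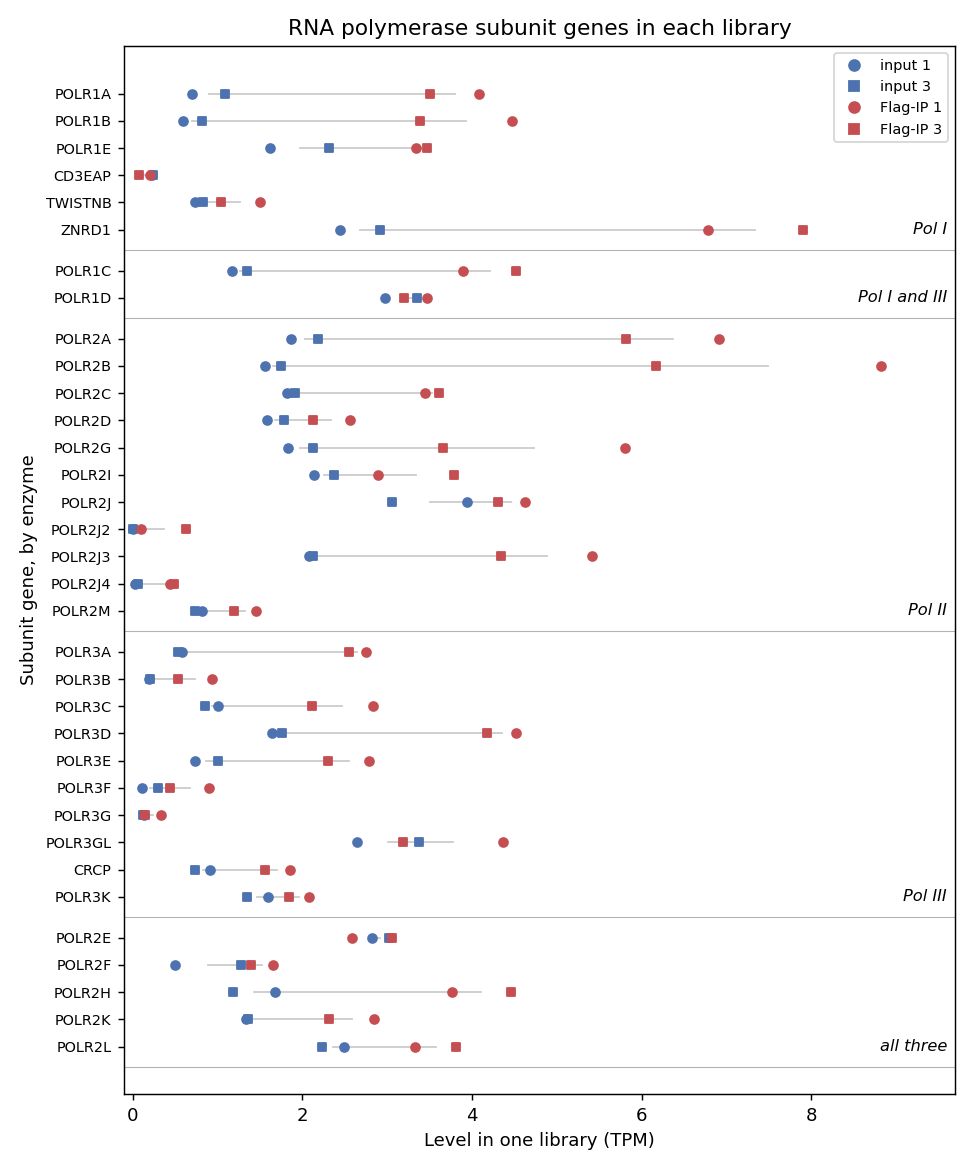
Level of the subunit genes in TPM (x axis) in the 2 input libraries (blue) and the 2 Flag-IP libraries (red), with genes grouped by enzyme and a line joining the group means. The POLR2B and ZNRD1 mRNAs reach the highest Flag-IP levels, while POLR1D, POLR2E and POLR3GL overlap between the groups.

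The ratios of the pairs were compared with those of all other subunits, as the question was whether subunit size goes with recovery. Pair ratios of means ran from 3.14 to 5.57 with a median of 4.38, against a median of 1.90 over the 28 other subunit genes listed above 0 in input. All 6 pair genes lay above the ratio of the median gene (2.38), as did 9 of those 28. Those 9 include the noncoding copy POLR2J4, whose ratio of 10.3 rests on 0.03 and 0.06 TPM in input. POLR1C (3.34) and POLR3F (3.27) also lay above the pair gene POLR2A (3.14). On the median-ratio scale 4 of the 5 tested pair genes passed upward, and of the 23 other tested subunits 0 passed upward and 6 downward. Of all tested genes 22.3% passed upward and 18.6% downward there. The medians of tested genes on that scale were 0.54 for the pairs and -0.24 for the others, values for which no test was made because genes are not replicates. Of the pair genes passing upward, POLR1A, POLR1B and POLR3A had input means of 0.895, 0.705 and 0.555 TPM. They reached the 1 TPM filter only through their Flag-IP values, as did other subunits such as TWISTNB and CRCP. A gene that low in input and not raised in Flag-IP could not be tested. The upward counts and the pair median are therefore partly set by the filter.

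POLR2B, the second largest subunit of polymerase II (chr4:56977722-57031168, plus strand), stood at 1.56 and 1.75 TPM in input 1 and 3 and at 8.82 and 6.17 TPM in Flag-IP 1 and 3. Both Flag-IP libraries were far above both inputs, though they differed from each other more than the inputs did. The ratio of means was 4.53, and the mRNA passed upward on both scales, by 1.66 as deposited (limma adjusted p = 7.0e-14) and by 0.69 ± 0.11 relative to the typical gene (SE, adjusted p = 0.00546). POLR2A, the largest subunit, whose C-terminal repeat domain is phosphorylated through the transcription cycle (chr17:7484366-7514616, plus strand), stood at 1.87 and 2.19 TPM in input and 6.91 and 5.82 TPM in Flag-IP. The groups did not overlap and the ratio was 3.14. POLR2A passed on the deposited scale (1.28, limma adjusted p = 8.4e-09), while its median-ratio difference of 0.30 ± 0.10 did not pass (adjusted p = 0.0528). POLR2B thus lay above POLR2A in both Flag-IP libraries and below it in both inputs.

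The polymerase I pair was low in input and above 3 TPM in both Flag-IP libraries. POLR1B, the second largest subunit (chr2:112541915-112577150, plus strand), stood at 0.59 and 0.82 TPM in input and 4.47 and 3.39 TPM in Flag-IP (ratio 5.57). It passed upward by 1.53 as deposited (limma adjusted p = 1.0e-12) and by 0.75 ± 0.11 relative to the typical gene (adjusted p = 0.00371). POLR1A, which carries the catalytic loop (chr2:86020216-86106155, minus strand), stood at 0.70 and 1.09 TPM in input and 4.08 and 3.51 TPM in Flag-IP (ratio 4.24). It passed upward by 1.34 as deposited (limma adjusted p = 4.7e-10) and by 0.54 ± 0.12 relative to the typical gene (adjusted p = 0.0155). The latter call was lost when input 1 was left out (0.43, adjusted p = 0.0642) and when Flag-IP 3 was (0.51, adjusted p = 0.0702).

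Summed over its genes, the polymerase III pair was the lowest pair in every library. POLR3A, the largest subunit (chr10:77969251-78029545, minus strand), stood at 0.58 and 0.53 TPM in input and 2.75 and 2.55 TPM in Flag-IP (ratio 4.77). The groups were tight and did not overlap, and POLR3A passed upward by 1.23 as deposited (limma adjusted p = 1.2e-09) and by 0.54 ± 0.11 relative to the typical gene (adjusted p = 0.0122). Without Flag-IP 3 the latter was 0.47 (adjusted p = 0.0552). POLR3B, the second largest subunit (chr12:106357658-106510198, plus strand), stood at 0.19 and 0.21 TPM in input and 0.93 and 0.53 TPM in Flag-IP. Its ratio was 3.65, but its mean lay under 1 TPM and it was not among the tested genes. With all genes fitted regardless of level, POLR3B passed on the deposited scale (0.52, limma adjusted p = 0.0394) but not on the median-ratio scale (0.15, adjusted p = 0.294).

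Counted together, the pairs made up 11.7% and 13.0% of all subunit TPM in input 1 and 3, and 25.7% and 22.4% in Flag-IP 1 and 3. The order of the subunits differed between the groups. POLR2B ranked 15 of 35 by mean input level and 1 by mean Flag-IP level, POLR2A 9 and 3, POLR1B 27 and 10, and POLR1A 21 and 11. In the opposite direction POLR2J ranked 1 in input and 6 in Flag-IP, POLR1D 2 and 17, POLR2E 4 and 18, and POLR3GL 3 and 12. Neighbours in these orders often differed by less than the spread between the libraries of a group.

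**Figure D2:**
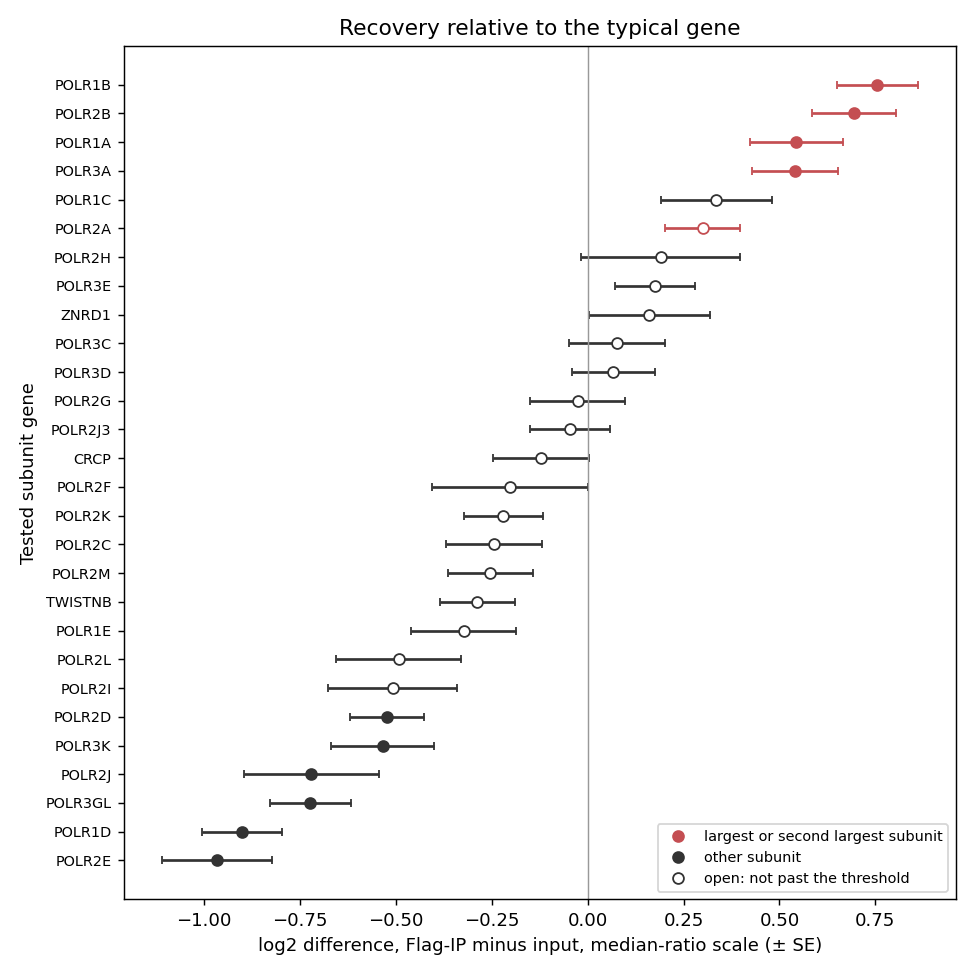
Log2 difference, Flag-IP minus input, of each tested subunit gene on the median-ratio scale (bars, SE), where 0 is the typical gene. Catalytic pairs are red and filled points passed the test: the 4 genes past the threshold upward belong to catalytic pairs, and the 6 past it downward are POLR1D, POLR2D, POLR2E, POLR2J, POLR3GL and POLR3K.

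The alpha-like subunits, on which each enzyme is assembled, parted. POLR1C, the larger alpha-like subunit of polymerases I and III (AC40), stood at 1.17 and 1.35 TPM in input and 3.90 and 4.52 TPM in Flag-IP (ratio 3.34). POLR1C passed on the deposited scale (1.20, limma adjusted p = 4.1e-08), while its median-ratio difference of 0.34 ± 0.15 did not (adjusted p = 0.113; without Flag-IP 1 it was 0.53 and passed, adjusted p = 0.0369). POLR1D, its smaller partner (AC19), stood at 2.97 and 3.35 TPM in input and 3.47 and 3.20 TPM in Flag-IP. These groups overlapped, the ratio was 1.06 and the deposited difference of 0.06 did not pass, so that POLR1D fell by 0.90 ± 0.10 relative to the typical gene (limma adjusted p = 0.00209). Of the 6487 tested genes, 97.1% had a larger ratio than POLR1D.

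In polymerase II the alpha-like partners are POLR2C and POLR2J. POLR2C (RPB3) stood at 1.82 and 1.91 TPM in input and 3.45 and 3.61 TPM in Flag-IP, with a ratio of 1.89. It passed on the deposited scale (0.66, limma adjusted p = 0.00244; 0.64 with adjusted p = 0.0722 without input 1), and its median-ratio value was -0.24 (adjusted p = 0.167). POLR2J (RPB11) stood at 3.94 and 3.06 TPM in input and 4.62 and 4.31 TPM in Flag-IP (ratio 1.28). By mean input level it was the most abundant subunit mRNA, though in input 3 POLR3GL (3.37 TPM) and POLR1D (3.35 TPM) were higher. The deposited difference of POLR2J, 0.29, did not pass, and on the median-ratio scale it fell by 0.72 ± 0.18 (limma adjusted p = 0.0217). That call was lost without input 1, Flag-IP 1 or Flag-IP 3 (adjusted p = 0.0518, 0.104 and 0.0685).

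The copies of POLR2J did not follow it, although their shared sequence makes every value of the family uncertain. POLR2J3 stood at 2.08 and 2.13 TPM in input and 5.42 and 4.34 TPM in Flag-IP (ratio 2.32), and passed on the deposited scale (0.92, limma adjusted p = 3.4e-05) but not on the median-ratio scale (-0.05). POLR2J2 was listed at 0 in input 1 and input 3, with 0.10 and 0.63 TPM in Flag-IP 1 and 3. POLR2J4, annotated as a noncoding processed transcript, stood at 0.03 and 0.06 TPM in input and 0.44 and 0.49 TPM in Flag-IP. Its groups did not overlap, but POLR2J2 and POLR2J4 were too low to be tested. How the counting shared reads among the copies is not given in the sources used here, and GENCODE 29 holds 2 gene records each for POLR2J3 and POLR2J4.

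The stalk subunits bind the emerging RNA, and their tested mRNAs had ratios from 1.39 to 2.39. POLR2D (RPB4) stood at 1.58 and 1.78 TPM in input and 2.56 and 2.12 TPM in Flag-IP (ratio 1.39), and relative to the typical gene it fell by 0.52 ± 0.10 (limma adjusted p = 0.00900; without Flag-IP 1 the difference was -0.45 and adjusted p = 0.0536). Its partner POLR2G (RPB7) stood at 1.83 and 2.12 TPM in input and 5.80 and 3.66 TPM in Flag-IP (ratio 2.39), close to the median gene (median-ratio difference -0.03). The 2 proteins form a dimer, and the mRNA of 1 passed downward while that of the other lay near 0 on that scale, a difference between them that was not tested. TWISTNB, the stalk subunit RPA43 of polymerase I, stood at 0.73 and 0.83 TPM in input and 1.5 and 1.04 TPM in Flag-IP. It passed on neither scale (0.34, limma adjusted p = 0.0633, and -0.29, adjusted p = 0.0591), although on the deposited scale it passed without Flag-IP 3 (0.49, adjusted p = 0.00333). CRCP, the stalk subunit RPC9 of polymerase III, stood at 0.91 and 0.74 TPM in input and 1.85 and 1.56 TPM in Flag-IP (ratio 2.07). CRCP passed on the deposited scale alone (0.57, limma adjusted p = 0.00361), and not when input 1 or input 3 was left out (adjusted p = 0.0527 and 0.117).

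Among the zinc ribbon subunits, which act in RNA cleavage and proofreading, ZNRD1 stood apart by its level. ZNRD1 (RPA12, polymerase I) stood at 2.44 and 2.91 TPM in input and 6.78 and 7.90 TPM in Flag-IP, by mean the highest subunit mRNA of Flag-IP after POLR2B. In Flag-IP 3 it lay above POLR2B (6.17 TPM), and in Flag-IP 1 below POLR2A (6.91 TPM). It passed on the deposited scale (1.18, limma adjusted p = 1.1e-07), while with a ratio of 2.74 its median-ratio difference was 0.16 (adjusted p = 0.445). Exons of ZNRD1ASP on the opposite strand cover 44.8% of its transcript. POLR2I (RPB9, polymerase II), with 45.7% of its transcript opposite exons of TBCB, stood at 2.14 and 2.37 TPM in input and 2.89 and 3.79 TPM in Flag-IP (ratio 1.48), and passed on neither scale (0.41, limma adjusted p = 0.0605, and -0.51, adjusted p = 0.0546). Without Flag-IP 1 it passed upward on the deposited scale (0.56, adjusted p = 0.0236), and without Flag-IP 3 it passed downward on the median-ratio scale (-0.70, adjusted p = 0.0216). POLR3K (RPC10, polymerase III) stood at 1.59 and 1.35 TPM in input and 2.08 and 1.84 TPM in Flag-IP (ratio 1.33). Relative to the typical gene POLR3K fell by 0.53 ± 0.13 (limma adjusted p = 0.0231), a call lost without input 1, Flag-IP 1 or Flag-IP 3 (adjusted p = 0.0711, 0.111 and 0.0843).

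Polymerase I also carries a dimer with likeness to general initiation factors, made of POLR1E and CD3EAP. POLR1E stood at 1.62 and 2.32 TPM in input and 3.34 and 3.47 TPM in Flag-IP. The ratio was 1.73, and POLR1E passed on the deposited scale (0.58, limma adjusted p = 0.00783; 0.41 with adjusted p = 0.246 without input 1) and not on the median-ratio scale (-0.32, adjusted p = 0.106). The deposited call was also lost with the replicate number as a block (adjusted p = 0.0676). CD3EAP stood at 0.23 and 0.24 TPM in input and 0.20 and 0.07 TPM in Flag-IP (ratio 0.574). It was the only one of the 35 genes with both Flag-IP libraries below both inputs, at levels too low for the main test. With all genes fitted regardless of level, it passed downward on the median-ratio scale (-0.33, limma adjusted p = 0.0277). On the deposited scale it did not pass (-0.12, adjusted p = 0.197). CD3EAP shares 48.5% of its transcript with exons of ERCC1 on the opposite strand, and no strand setting of the counting is given in the sources used here.

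Among the other peripheral subunits of polymerase III, POLR3GL alone of the 4 tested passed on the median-ratio scale, downward. POLR3D and POLR3E, the dimer RPC4 and RPC5 that acts in initiation and termination, stood at 1.64 and 1.76 and at 0.73 and 1.01 TPM in input, and at 4.52 and 4.18 and at 2.79 and 2.30 TPM in Flag-IP. Their ratios were 2.56 and 2.93 and neither passed on the median-ratio scale (0.07 and 0.18). POLR3C, of the trimer that opens the promoter, stood at 1.01 and 0.85 TPM in input and 2.83 and 2.11 TPM in Flag-IP, with a ratio of 2.66. On the deposited scale POLR3C, POLR3D and POLR3E passed, by 0.84, 0.99 and 0.92 (limma adjusted p = 5.2e-05, 7.6e-06 and 8.5e-06). POLR3GL and POLR3G encode alternative forms of another trimer subunit, RPC7, and shared 69.8% of aligned coding bases, gaps left out. POLR3GL stood at 2.65 and 3.37 TPM in input and 4.37 and 3.19 TPM in Flag-IP, overlapping groups with a ratio of 1.26, and relative to the typical gene it fell by 0.72 ± 0.11 (limma adjusted p = 0.00425). POLR3G, the form known from stem cells and tumours, stood at 0.13 and 0.12 TPM in input and 0.33 and 0.15 TPM in Flag-IP, and POLR3F, the other trimer subunit, at 0.11 and 0.30 and at 0.90 and 0.44 TPM. Neither was tested.

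The 5 subunits common to the 3 enzymes are small proteins, and their median ratio was 1.72. POLR2E (RPB5) stood at 2.82 and 3.02 TPM in input and 2.58 and 3.06 TPM in Flag-IP. These groups overlapped, with a ratio of 0.966, the lowest of the tested subunits. POLR2E fell by 0.97 ± 0.14 on the median-ratio scale (limma adjusted p = 0.00440), and 98.0% of tested genes had a larger ratio. POLR2H (RPB8) had the highest ratio of the 5, 2.87, with 1.68 and 1.18 TPM in input and 3.76 and 4.46 TPM in Flag-IP (deposited difference 1.08, limma adjusted p = 9.4e-07). POLR2K (RPB12) stood at 1.34 and 1.36 TPM in input and 2.84 and 2.32 TPM in Flag-IP (0.60, limma adjusted p = 0.00444), a call lost when input 1 or input 3 was left out (adjusted p = 0.0874 and 0.0685). POLR2L (RPB10) stood at 2.49 and 2.23 TPM in input and 3.33 and 3.81 TPM in Flag-IP, and its call (0.44, limma adjusted p = 0.0422) was lost without input 1 (0.157), input 3 (0.247) or Flag-IP 3 (0.109) and with the replicate block (0.164), as adjusted p. POLR2F (RPB6) stood at 0.50 and 1.28 TPM in input and 1.66 and 1.40 TPM in Flag-IP. Its inputs differed widely and without input 1 its deposited difference of 0.45 (limma adjusted p = 0.0192) became 0.15 (adjusted p = 0.653); with the replicate block its adjusted p was 0.0806. POLR2H, POLR2K, POLR2L and POLR2F did not pass on the median-ratio scale.

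POLR2M, which encodes Gdown1, a protein bound to part of the polymerase II pool, stood at 0.82 and 0.73 TPM in input and 1.45 and 1.19 TPM in Flag-IP (ratio 1.70). Its deposited call (0.38, limma adjusted p = 0.0392) was lost without input 1 (adjusted p = 0.176), without input 3 (adjusted p = 0.255) and with the replicate block (adjusted p = 0.118). Exons of GCOM1 on the same strand cover 33.0% of the POLR2M transcript.

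By enzyme, the medians lay closer together than those of the pairs and the other subunits. The median ratio was 2.24 over 6 genes of polymerase I alone, 2.11 over 10 of polymerase II with input above 0 and 2.56 over 11 of polymerase III. Medians of tested genes on the median-ratio scale were 0.16, -0.24 and 0.07 for 5, 9 and 7 genes. The sign of the polymerase I median turned without Flag-IP 3 (-0.03) and that of polymerase III without input 3 (-0.08). Each enzyme held subunits on either side of the median gene, with 3 above and 3 below in polymerase I, 4 and 6 in polymerase II, and 6 and 5 in polymerase III. The noncoding copy POLR2J4 is among the 4 of polymerase II.

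By median the catalytic pairs also had longer mRNAs and more exons than the other subunits, though the ranges overlapped. Their longest RefSeq-linked transcripts in GENCODE 29 had a median of 5850 bases (3839 to 12749) and 28.5 exons (16 to 34), against 2046.5 bases (827 to 5042) and 6 exons (2 to 21) for 26 other subunits. POLR2J2, POLR2J3 and POLR2J4 were left out here. Across all 5968 tested protein-coding genes the median-ratio difference went with transcript length (Spearman's rho 0.48) and with exon number (0.57). Over 27 tested subunits the values were 0.38 and 0.69. These are descriptions across genes of the same 4 libraries, and genes are not independent replicates.

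Length and exon number did not sort the subunits in the same way. Tested protein-coding genes within 3839 to 12749 bases, the length range of the pairs, numbered 2176 and had a median ratio of 3.08, below all 6 pair ratios. Tested subunits in that range outside the pairs were TWISTNB (3942 bases), POLR2D (5042) and POLR2M (4199), with ratios of 1.63, 1.39 and 1.70. Each of these has 4 exons. In the class of 21 or more exons the 6 subunits POLR1A, POLR2A, POLR2B, POLR3A, POLR3B and POLR3E had a median ratio of 3.95, beside 3.93 for 1073 tested protein-coding genes. In the classes of 1 to 5, 6 to 10 and 11 to 20 exons the subunits had medians of 1.51 (n = 11), 2.06 (n = 12) and 2.66 (n = 3), beside 1.77, 2.08 and 2.64 for all such genes. The sets are unlike: the subunit medians take in untested members, CD3EAP, POLR3B, POLR3F and POLR3G among them, while the other medians hold tested genes only. How close the paired medians lie is therefore not read as a result. POLR1B was far above its class, with 16 exons and a ratio of 5.57.

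With the trend on transcript length removed over all genes, POLR1B (0.52, limma adjusted p = 0.0130) and POLR2B (0.56, adjusted p = 0.0136) still passed upward. POLR1A was then at -0.03, POLR2A at -0.02 and POLR3A at 0.23 (adjusted p = 0.132). POLR1D (-0.79), POLR2D (-0.75), POLR2E (-0.99) and POLR3GL (-0.43) still passed downward (limma adjusted p = 0.00445, 0.00410, 0.00537 and 0.0280), while POLR2J (-0.41) and POLR3K (-0.28) did not. TWISTNB (-0.43, limma adjusted p = 0.0131) and POLR2M (-0.42, adjusted p = 0.0228) passed downward here and with quantile scaling, and under none of the other alternatives run, and POLR2J3 passed upward here (0.37, adjusted p = 0.0431). The part of exon number, length and RNA fragmentation in these differences was not tested beyond that.

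**Figure D3:**
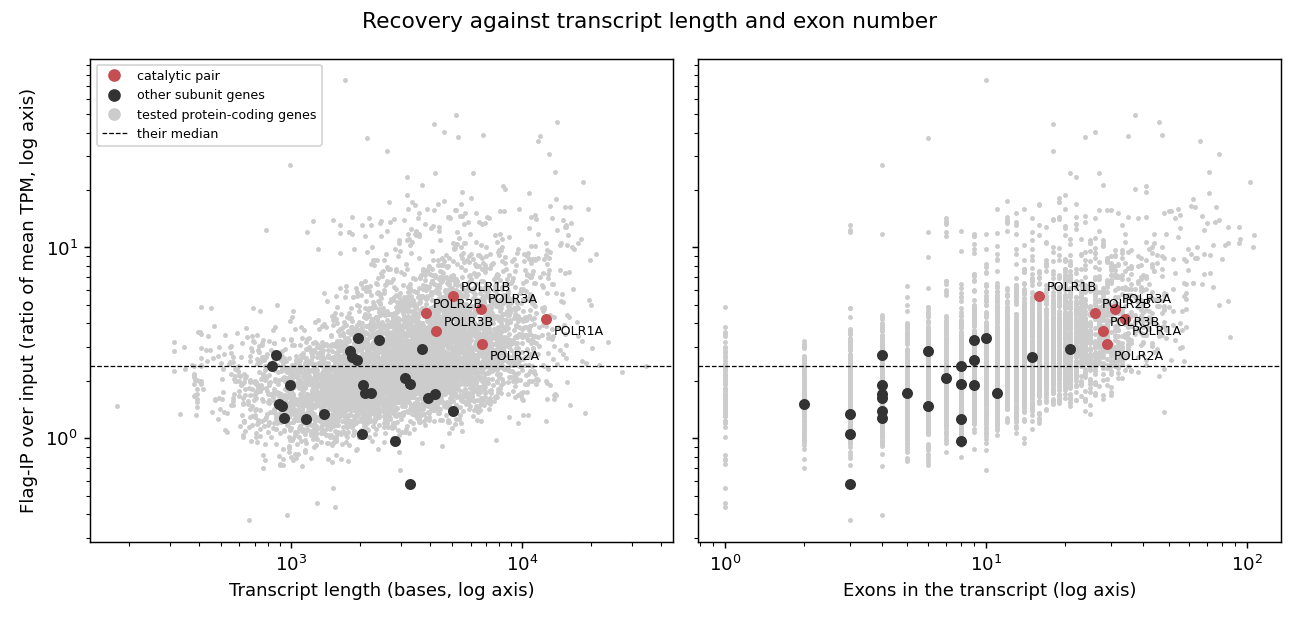
Ratio of Flag-IP to input mean TPM (y axis) against transcript length and against exon number, all on log axes, for catalytic pairs (red, named) and other subunits (black) over tested protein-coding genes (grey, their median dashed). The pairs lie at 3839 bases or more and 16 exons or more, all above the dashed line.

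ALKBH5 acts on m6A, whose preferred context in mRNA includes the letters GGACT. In the transcript strand of the same RefSeq-linked transcripts this motif occurred at a median of 1.03 per kilobase in the pairs (0.26 in POLR2B to 1.36 in POLR3A) and 1.11 in the 26 other subunits, beside 0.95 in tested protein-coding genes. The median-ratio difference had a Spearman's rho of -0.15 with motif density over 27 subunits and of 0.03 over the 5968 genes. POLR2B, with the highest mean Flag-IP level of the subunits, held the motif at a lower density than any other catalytic gene, and POLR2G held it most often, at 3.63 per kilobase. No measurement of m6A is analysed here, and a match of letters is not a site.

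Genes that work with the polymerases were followed through 6 lists, and these too had members on either side of the typical gene. The lists were chosen with earlier results of these data known, and their counts stand beside 86.6% of all tested genes passing upward on the deposited scale, and 22.3% upward and 18.6% downward on the median-ratio scale. Of 8 tested polymerase I factors 7 passed upward on the deposited scale, and 3 passed upward and 3 downward on the median-ratio scale (median 0.02). TAF1C, a subunit of the promoter selectivity factor, went from 0.21 and 0.14 TPM in input to 2.71 and 2.89 TPM in Flag-IP and passed upward (1.14, limma adjusted p = 0.00192). NPM1 and NCL, abundant nucleolar proteins, fell relative to the typical gene by 1.03 and 0.63 (limma adjusted p = 0.00155 and 0.0108), and NPM1 stood at 62.81 and 74.67 TPM in input and 91.96 and 68.78 TPM in Flag-IP.

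For polymerase II, 20 of 24 tested general initiation factors passed upward on the deposited scale, and 4 passed upward and 4 downward on the median-ratio scale (median -0.11). TAF1, the largest subunit of TFIID, had a ratio of 6.02 and passed upward (1.06, limma adjusted p = 0.00152), as did TAF8 (0.37, adjusted p = 0.0266), while TAF15 did not (0.30, adjusted p = 0.0522). GTF2F1, the large subunit of TFIIF, fell by 0.89 (limma adjusted p = 0.00697). Of 31 tested elongation and C-terminal domain factors 30 passed upward on the deposited scale, and 6 passed upward and 6 downward on the median-ratio scale (median -0.04). SCAF8, which binds the C-terminal domain, passed upward (0.84, limma adjusted p = 0.00261), as did PCF11, a factor of 3′ end processing and termination (0.72, adjusted p = 0.00908). Of the subunits of the histone chaperone FACT, SSRP1 fell by 0.71 (limma adjusted p = 0.00483) and SUPT16H was at -0.10 (adjusted p = 0.502).

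Of 13 tested polymerase III factors 11 passed upward on the deposited scale, and 4 passed upward and 4 downward on the median-ratio scale (median -0.10). MAF1, the repressor of polymerase III, and GTF3A, the 5S gene factor, fell by 0.84 and 0.40 (limma adjusted p = 0.00602 and 0.0342), and SSB, which binds the ends of polymerase III transcripts, was at -0.55 and did not pass (adjusted p = 0.0680). Of 16 tested assembly and import factors 15 passed upward on the deposited scale, and 3 passed upward and 3 downward on the median-ratio scale (median -0.28). RPAP1, a polymerase II assembly factor, passed upward (0.89, limma adjusted p = 0.00219), HSP90AB1 fell by 0.73 (adjusted p = 0.00383), and HSP90AA1 was at -0.22 (adjusted p = 0.127). Of 8 genes of mitochondrial transcription 2 were tested: the single-subunit polymerase POLRMT was at 0.25 (limma adjusted p = 0.153), and MTERF3 passed upward (0.43, adjusted p = 0.0470). Nothing particular to a list is read from these counts.

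**Figure D4:**
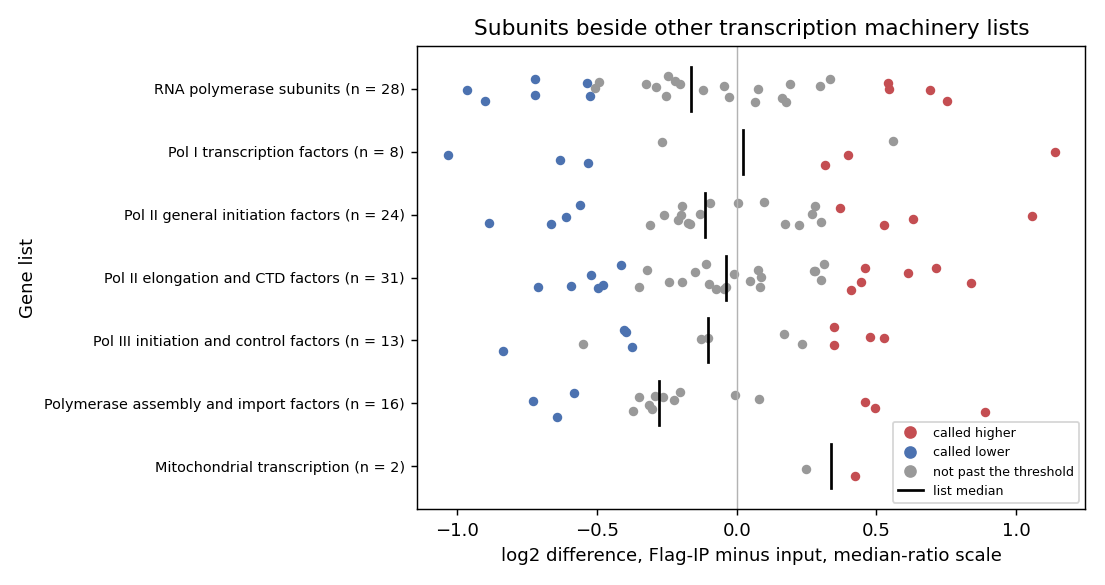
Log2 difference on the median-ratio scale (x axis) of each tested gene in the subunit list and the 6 related lists, coloured by call, with a black line at each list's median. Every list but mitochondrial transcription (n = 2) has genes past the threshold on both sides of 0.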

How the data were processed

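RNA immunoprecipitation sequencing of 3xFlag-ALKBH5 in NOMO-1 cells gave 2 input and 2 Flag-IP libraries, made with a TruSeq stranded mRNA kit per the labels' protocols. Per the submitters' processing notes, STAR, RSEM and GRCh38 were used; the versions and gene annotation were not given in the sources used here. Deposited by the authors were TPM values per gene symbol. Depth is unknown, so no counting interval is given.

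The 6487 genes averaging 1 TPM or more were compared on log2(TPM + 1) with limma 3.58.1 in R 4.3.3 (lmFit, eBayes with trend, two-sided), Benjamini-Hochberg adjusted over all tested, at 0.05, first as deposited and then after median-ratio scaling. The prior degrees of freedom came out infinite for the former, whose p-values may be too small, and 4.02 for the latter. A check of the test on simulated data used only genes above the input level of most pair genes, and does not cover genes that low. The members, the lists and the comparison by subunit size were chosen with earlier results of these data known. 1 untested member is counted in the totals and not reported here by name; of each list the text names the 2 tested genes of highest mean and the 2 of largest median-ratio difference. Exons, lengths and sequences are from GENCODE 29 (GRCh38). Of the members, 21 have exons overlapping another gene, 16 on the opposite strand and 8 on the same. Alternatives were another pseudocount, filter or scaling, no trend, the replicate number as a block, a loess correction for transcript length (span 0.5) and each library left out.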

Additional observations from a re-analysis of the deposited data

How the results depend on the processing

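With the filter at a mean of 5 TPM 1 subunit gene, ZNRD1, was tested: 1 was called higher on the deposited scale and 0 in either direction on the median-ratio scale, where the median outside the pairs became 0.34, and over all genes the calls were 1272 higher and 25 lower, and 392 and 355. Quantile scaling gave 10 subunits lower in place of 6 and put POLR3C, with the polymerase III median, at -0.0165. With the length trend removed POLR1A, with the polymerase I median, was at -0.0322, POLR2A at -0.0187, POLR2G at 0.28, POLR2J3 at 0.37 (limma adjusted p = 0.0431, on a transcript without UTRs) and POLR2K at 0.0944. Leaving out each library gave 13 to 20 subunits higher on the deposited scale, and 2 to 5 higher and 3 to 7 lower on the median-ratio scale. Over all genes the median-ratio counts were 897 to 1225 higher and 567 to 916 lower, lowest without Flag-IP 1. The sign was not stable to this on the deposited scale for POLR1D (-0.0057 to 0.13) and POLR2E (-0.13 to 0.0511), and on the median-ratio scale for ZNRD1 (-0.0342 to 0.40), POLR2F (-0.56 to 0.11), POLR2G (-0.12 to 0.12), POLR2H (-0.0764 to 0.45), POLR2J3 (-0.14 to 0.0106), POLR3C (-0.0765 to 0.22), CRCP (-0.29 to 0.0142), the polymerase I median (-0.0342 to 0.49) and the polymerase III median (-0.0765 to 0.0987). The causes were not tested. With the replicate number as a block 16 subunits were higher on the deposited scale (POLR1E, POLR2F, POLR2L and POLR2M were lost), and 4 higher and 6 lower on the median-ratio scale, with no other call changed there. Same-numbered libraries did not deviate together (Pearson's r -0.19 across 6487 genes), and a crossed block, added after seeing the data, gave 23 higher, and 4 higher and 8 lower. With 0.1 TPM as pseudocount the calls on the median-ratio scale kept their side for all 28 tested subunits, and the pair median was 0.87. Levels of a few TPM at unknown depth, with 2 libraries a group, limit every comparison.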
